A study of Mus musculus with 42 samples.

Results

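The 10 genes described here encode enzymes that carry fatty acids into the mitochondrial matrix and break them down. They are Acsl1, Cpt1a, Cpt2, Acadvl, Acadl, Acadm, Hadha, Hadhb, Acaa2 and Etfdh, chosen by symbol for their place in the pathway from the 54446 genes of the count table, and each passed the filter on low counts. Their RNA was measured by bulk sequencing of 42 livers from female APOE*3-Leiden mice, which carry a human apolipoprotein E variant that makes them hyperlipidemic. The promoter that drives the transgene is not given in the sources used here. The control group of 10 mice carried the same transgene and stayed on a maintenance chow diet, at an age not given in the sources used here. Another 16 mice received a Western-type diet (WTD) with 15% cocoa butter, 40.5% sucrose and 1% cholesterol, and the remaining 16 received the same WTD with atorvastatin, an inhibitor of HMG-CoA reductase. The WTD-fed mice were 8 to 14 weeks old at the start and had a run-in of 3 weeks on WTD, after which atorvastatin was given at 3.0 mg/kg/day and, from week 5, at 4.5 mg/kg/day. From week 22 both WTDs held 0.05% cholate, and the livers were taken at week 32.

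A fatty acid is first joined to coenzyme A by an acyl-CoA synthetase such as Acsl1. Cpt1a on the outer mitochondrial membrane exchanges the coenzyme A for carnitine, which lets the acyl group cross into the matrix, and Cpt2 on the inner membrane reverses the exchange. The acyl-CoA is then shortened in repeated rounds. In each round an acyl-CoA dehydrogenase (Acadvl for very long, Acadl for long and Acadm for medium chains) takes electrons that pass through Etfdh to the respiratory chain. The trifunctional protein, built of Hadha and Hadhb subunits, performs the hydration, the second dehydrogenation and the thiolysis of long chains, and Acaa2 is the thiolase for shorter chains. In the liver the acetyl-CoA that is released feeds ketone body synthesis during fasting.

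Libraries held between 15661381 and 36224054 counts on genes, and the 10 genes together took 0.276% to 0.459% of them. In 9 libraries (3 chow, 5 WTD and 1 with atorvastatin) over 20% of the genes at 1 to 2 CPM (read counts normalized to library size) in their own group had no count at all. Chow mouse AZ#1 stood apart, since its 5 skeletal muscle markers summed to 2108 CPM against a median of 1.65 CPM over the 42 mice and its 5 B cell markers to 1413 CPM against 36.6 CPM. WTD mouse Gen#20, whose library is among the 9, had the highest hepatocyte marker sum and the lowest macrophage, stellate cell and cholangiocyte marker sums of the 16 WTD mice. The 10 hepatocyte markers, albumin and transthyretin among them, summed to a median of 138934 CPM in chow livers, 76584 CPM in WTD livers and 119031 CPM with atorvastatin. In such bulk samples fewer hepatocytes and less RNA per hepatocyte cannot be told apart.

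The RNA of 9 of the 10 enzymes fell in WTD compared with chow livers (adjusted p under 0.01 in the quasi-likelihood test of edgeR over 15574 genes), although Hadha, Hadhb and Etfdh turned to slightly above 0 on total-count scaling, which leaves out the TMM factors by which edgeR corrects for library composition, and where the median gene moved by 0.34. Acsl1 fell by 50.1% and Hadhb fell by 16.1%, the largest and smallest of these changes. For comparison, 16.0% of all tested genes were called lower. The median log2 fold change was -0.58 over the 10 enzymes, -0.86 over the 10 hepatocyte markers and 0.027 over all genes. Cpt1a was the member that was not called. With atorvastatin 2 enzymes, Acaa2 and Acsl1, were called higher than on WTD alone, and 6 were still lower than in chow livers. Neither of the 2 was called with DESeq2, RLE, upper-quartile or total-count scaling or with only the 2 groups compared. In other settings more were called higher, 3 without the 9 libraries and 8 with limma-voom.

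**Figure D1:**
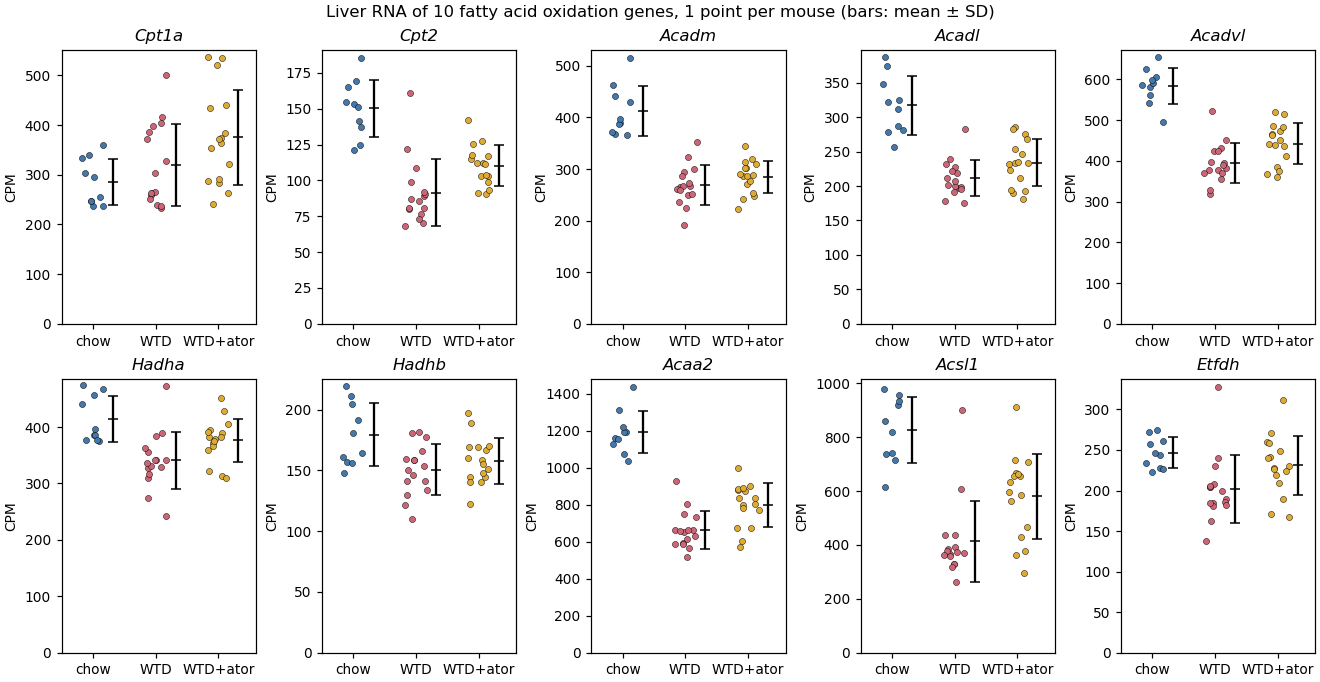
Level of each of the 10 genes in CPM (linear axis from 0) in every mouse of the chow, WTD and WTD with atorvastatin (WTD+ator) groups, with 1 point per mouse and bars for mean ± SD. The chow points of Acadm and Acaa2 lie above every WTD and every atorvastatin point, whereas the 3 groups of Cpt1a overlap.

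Acsl1, on chromosome 8 (46471037 to 46536051, plus strand, GRCm38), showed the largest change of the 10 genes. Its lowest, median and highest levels were 613, 840 and 981 CPM in chow mice, 263, 372 and 900 CPM in WTD mice and 297, 616 and 912 CPM in mice given atorvastatin. The groups overlapped through WTD mouse Gen#20 alone, as the other 15 WTD mice were below every chow mouse. Acsl1 fell by 50.1% on WTD (SE of the log2 fold change 0.15, adjusted p = 2.63e-07). Without Gen#20 its log2 fold change was -1.12.

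Cpt1a, on chromosome 19 (3322334 to 3385733, plus strand), encodes the step at which malonyl-CoA restrains entry into the mitochondrion. It read 237, 275 and 360 CPM (lowest, median and highest) in chow mice, 233, 285 and 502 CPM in WTD mice and 241, 368 and 536 CPM with atorvastatin. The WTD mice spread more widely than the chow mice, and 8 of 16 were on either side of the chow median. The log2 fold change was 0.16 (95% interval -0.098 to 0.42, adjusted p = 0.32), and it was -0.0060 without the 9 libraries. On total-count scaling Cpt1a was called higher (0.46, adjusted p = 0.0015), or 0.12 relative to the median gene in that setting. There 5148 of all 15574 tested genes were called higher.

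Cpt2, on chromosome 4 (107903981 to 107923610, minus strand), encodes the step on the inner membrane that follows Cpt1a. It read 121, 152 and 185 CPM in chow mice, 68.4, 86.1 and 161 CPM in WTD mice and 90.2, 112 and 142 CPM with atorvastatin, again as lowest, median and highest. Among WTD mice 14 of 16 were below the lowest chow mouse, and the highest was again Gen#20. Cpt2 fell by 0.72 on the log2 scale (SE 0.096, adjusted p = 1.48e-08).

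The 3 acyl-CoA dehydrogenases fell to a like extent in WTD livers. Acadvl, on chromosome 11 (70010183 to 70015411, minus strand), read 494, 588 and 655 CPM in chow mice, 318, 385 and 522 CPM in WTD mice and 360, 446 and 521 CPM with atorvastatin. Acadl, on chromosome 1 (66830839 to 66863277, minus strand), read 256, 317 and 387 CPM in chow mice, 176, 204 and 283 CPM in WTD mice and 181, 234 and 286 CPM with atorvastatin. For both genes 15 of 16 WTD mice were below every chow mouse and Gen#20 was the exception. Acadm, on chromosome 3 (153922357 to 153944632, minus strand), read 367, 393 and 515 CPM in chow mice, 191, 265 and 353 CPM in WTD mice and 223, 288 and 344 CPM with atorvastatin. Here, as for Acaa2, chow mice overlapped with neither of the WTD-fed groups. How many of all tested genes separate the groups in this way was not counted. The log2 fold changes in WTD compared with chow were -0.57 for Acadvl (SE 0.069, adjusted p = 1.11e-09), -0.59 for Acadl (SE 0.078, adjusted p = 1.18e-08) and -0.62 for Acadm (SE 0.075, adjusted p = 9.13e-10). Exons of Acadvl, Hadha, Acsl1 and Etfdh lie partly opposite exons of Dvl2, Garem2, Gm45244 and 4930579G24Rik on the other strand, and the strand setting of the counting is not given in the sources used here.

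Hadha and Hadhb are transcribed away from each other on chromosome 5, Hadha from the minus strand (30118304 to 30155162) and Hadhb from the plus strand (30155248 to 30184593), with 85 bases between them. Hadha read 375, 391 and 474 CPM in chow mice, 242, 338 and 473 CPM in WTD mice and 309, 381 and 451 CPM with atorvastatin. Hadhb read 148, 173 and 220 CPM in chow mice, 110, 152 and 182 CPM in WTD mice and 123, 157 and 197 CPM with atorvastatin. All groups overlapped for both subunits, although 13 of 16 WTD mice were below every chow mouse for Hadha. The fall on WTD was 0.28 on the log2 scale for Hadha (SE 0.073, adjusted p = 0.0014), which turned to 0.027 on total-count scaling, or -0.31 relative to the median gene in that setting. For Hadhb the log2 fold change was -0.25 (SE 0.078, adjusted p = 0.0070), and 0.057 on total-count scaling, or -0.28 relative to the median gene. The call of Hadhb was lost when any of 11 single mice was left out, AZ#1 included (log2 fold change -0.23, adjusted p = 0.018), and under 6 of 11 alternative settings.

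The promoter sequences below are shown because the trifunctional protein genes face away from 1 short stretch, because Acsl1 changed most, and because Acadm separated chow mice from both WTD-fed groups. They come from RefSeq (GRCm38.p6), which gave windows for 9 of the 10 genes, and are written 5′ to 3′. Capitals mark matches on either strand to the motifs searched, which were the GC box GGGCGG, the NRF1 core GCATGCGC, the nuclear receptor half-site AGGTCA, the box with the letters CCAAT, the TATA box with the letters TATAAA, and the direct repeat of the half-site with a single base between. The gap is read on the plus strand at chr5:30155163-30155247, the Acsl1 stretch on the plus strand at chr8:46470787-46471036 and the Acadm stretch on the minus strand at chr3:153944644-153944893.
Hadha-Hadhb gap: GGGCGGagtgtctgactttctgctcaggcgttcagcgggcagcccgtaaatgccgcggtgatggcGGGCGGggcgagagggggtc
Acsl1: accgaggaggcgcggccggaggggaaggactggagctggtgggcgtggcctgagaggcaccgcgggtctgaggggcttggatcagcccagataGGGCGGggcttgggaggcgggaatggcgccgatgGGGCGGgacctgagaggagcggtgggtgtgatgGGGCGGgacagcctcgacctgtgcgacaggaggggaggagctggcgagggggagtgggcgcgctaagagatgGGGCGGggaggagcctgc
Acadm: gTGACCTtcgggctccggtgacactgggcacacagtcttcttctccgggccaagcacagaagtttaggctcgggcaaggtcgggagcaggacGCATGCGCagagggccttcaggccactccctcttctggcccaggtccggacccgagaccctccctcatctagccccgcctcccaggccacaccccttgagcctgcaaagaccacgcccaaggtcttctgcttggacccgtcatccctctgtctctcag

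The gap between the trifunctional protein genes was 69.4% G and C and the Acsl1 stretch 72.0%, and both carried the GC box, which appeared 4 times in the Acsl1 stretch. The motifs were searched in the 250 bases before each RefSeq start, which is not always the edge of the gene span given above. For Cpt1a and Etfdh these bases lay inside that span, and for Hadha most of them did. There GGGCGG was found for Acadl, Acsl1, Cpt1a, Cpt2, Hadha and Hadhb, and in 32.7% of the 32851 windows of all genes. GCATGCGC was found for Acadm and Etfdh, and in 2.26% of all windows. AGGTCA was found for Acadm, Acadvl and Cpt1a (14.0% of all windows), and CCAAT for Etfdh, Cpt1a and a later start of Acsl1 (33.8%). No window of the 9 genes held TATAAA (12.4% of all windows) or the direct repeat. These matches describe the letters only.

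Etfdh, on chromosome 3 (79603788 to 79629500, minus strand), hands the electrons of all the acyl-CoA dehydrogenases to ubiquinone. It read 223, 245 and 275 CPM in chow mice, 137, 195 and 328 CPM in WTD mice and 167, 229 and 311 CPM with atorvastatin. Of the WTD mice 13 were below every chow mouse, while Gen#20 was above all of them. The log2 fold change on WTD was -0.29 (SE 0.090, adjusted p = 0.0072), and 0.011 on total-count scaling, or -0.33 relative to the median gene. The call was lost without any of 13 single mice, AZ#1 included (-0.27, adjusted p = 0.016), and under 6 of 11 alternative settings.

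Acaa2, the most abundant of the 10 RNAs per kilobase, lies on chromosome 18 (74779197 to 74806208, plus strand). It read 1038, 1177 and 1434 CPM in chow mice, 515, 653 and 926 CPM in WTD mice and 571, 819 and 999 CPM with atorvastatin. Not 1 of the 32 WTD-fed mice reached the lowest chow mouse. Acaa2 had the smallest p of the 10 genes on WTD (log2 fold change -0.85, SE 0.081, adjusted p = 9.47e-13).

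The fall of Acsl1, Cpt2, Acadvl, Acadl, Acadm and Acaa2 was called in all 42 fits that left out a single mouse and in all 11 alternative settings, total-count scaling included. There the log2 fold changes of these 6 genes were -0.71, -0.41, -0.26, -0.28, -0.31 and -0.54. Without the 9 libraries, 9 of the 10 enzymes were called lower, with a median log2 fold change of -0.64.

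Between the group given atorvastatin and the group on WTD alone, log2 fold changes were above 0 for all 10 enzymes with TMM scaling, from 0.069 for Hadhb to 0.49 for Acsl1, although 5 of them (Acadm, Acadl, Acadvl, Hadha and Hadhb) fell below 0 on total-count scaling, where the median gene moved by -0.16. Of the 10, 2 were called (8 had an unadjusted p under 0.05), and 4.84% of all tested genes were called higher. Acsl1 was 1.40-fold higher (log2 fold change 0.49, SE 0.13, adjusted p = 0.0091), with 14 of 16 mice above the WTD median. Acaa2 was 1.21-fold higher (0.27, SE 0.072, adjusted p = 0.0072), also with 14 of 16 mice above the WTD median. Both groups overlapped for every one of the 10 genes.

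The other 8 enzymes were not called. Cpt2 stood at a log2 fold change of 0.27 (adjusted p = 0.027), and all 16 mice given atorvastatin were above the WTD median. Values were 0.23 for Cpt1a (adjusted p = 0.20), 0.19 for Etfdh (0.10), 0.16 for Acadvl (0.067), 0.15 for Acadl (0.18), 0.14 for Hadha (0.15), 0.083 for Acadm (0.50) and 0.069 for Hadhb (0.62). The median over the 10 enzymes was 0.18 and that over all genes 0.0016 (0.015 and -0.16 on total-count scaling), while the hepatocyte markers had a median of 0.40 with 7 of 10 called higher. Each of the 2 calls was lost under 6 of 11 alternative settings, and both adjusted p were close to the threshold of 0.01. When single mice were left out, Acaa2 was lost without any of 21 mice (adjusted p up to 0.017) and Acsl1 without any of 31 (adjusted p up to 0.022). In these 42 fits the log2 fold change stayed between 0.24 and 0.31 for Acaa2 and between 0.43 and 0.61 for Acsl1. Without WTD mouse Gen#20, 4 enzymes were called, with Cpt2 at 0.34 (adjusted p = 0.00045) and Etfdh at 0.25 (adjusted p = 0.0070) joining Acsl1 (0.61) and Acaa2 (0.31).

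**Figure D2:**
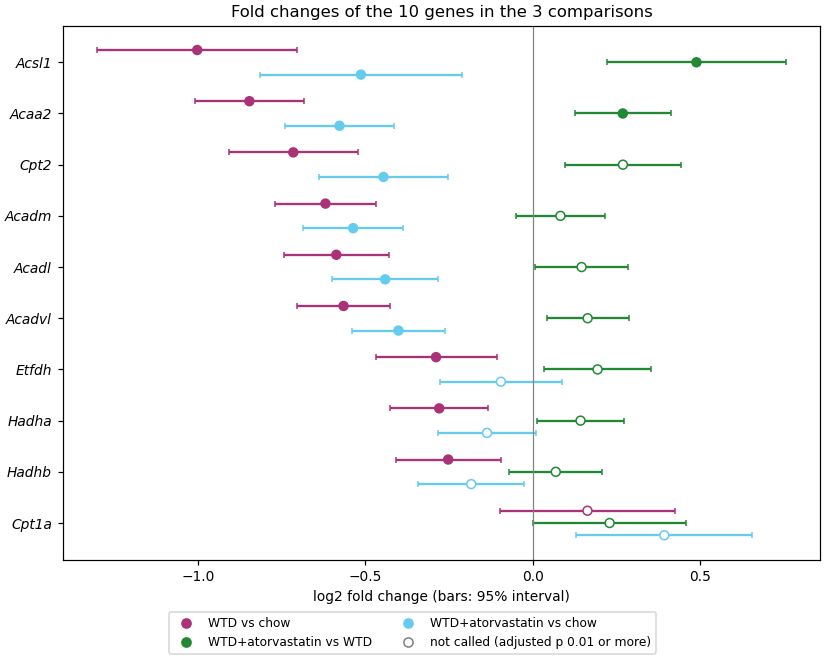
Log2 fold change of each of the 10 genes (x axis, with 95% interval) in the 3 comparisons between groups, ordered by the change in WTD compared with chow, with filled points where the adjusted p was under 0.01. Cpt1a is the only gene to the right of 0 against chow with the TMM scaling plotted (Hadha, Hadhb and Etfdh move there on total counts). For all 10 genes the atorvastatin points against chow lie to the right of the WTD points, which for Cpt1a is farther from 0.

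Compared with chow, 6 enzymes were lower in mice given atorvastatin, and 10.7% of all tested genes were. The log2 fold changes were -0.58 for Acaa2, -0.54 for Acadm, -0.51 for Acsl1, -0.45 for Cpt2, -0.44 for Acadl and -0.40 for Acadvl, with adjusted p from 7.29e-08 for Acadm to 0.0056 for Acsl1. Acsl1 lost this call without AZ#1 (adjusted p = 0.011), AZ#2, AZ#3, AZ#4, Gen#22 or Gen#25, on total-count scaling (-0.39, adjusted p = 0.011) and without the filter (-0.50, adjusted p = 0.013). Both comparisons share the 10 chow mice, and the comparison of the WTD-fed groups shares the 16 WTD mice, so they are not independent. Hadhb (-0.18, adjusted p = 0.063), Hadha (-0.14, adjusted p = 0.15) and Etfdh (-0.095, adjusted p = 0.45) were not called, and the last 2 were at 0.0094 and 0.043 on total-count scaling. Cpt1a stood at 0.39 (95% interval 0.13 to 0.66, adjusted p = 0.016), with 9 of 16 mice above the highest chow mouse. It was called higher by DESeq2, with a minimum of 10 counts in every mouse, on total-count scaling and without AZ#4, Gen#23 or Gen#31.

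A ratio of 2 counts inside a library does not depend on how libraries are scaled, so 7 ratios between enzymes were compared between the groups by permutation tests (two-sided, 100000 resamples, p adjusted over 21 tests, threshold 0.05). For the subunits of the trifunctional protein the lowest, median and highest Hadha to Hadhb count ratios were 1.78, 2.40 and 2.81 in chow mice, 1.74, 2.32 and 2.82 in WTD mice and 1.98, 2.44 and 2.704 with atorvastatin. The log2 difference between WTD and chow was -0.035 (SE 0.076, adjusted p = 0.65 in the permutation test). The ratios of Acadvl to Acadm (0.053, SE 0.078, adjusted p = 0.57) and of Acadl to Acadm (0.040, SE 0.061, adjusted p = 0.60) also missed the threshold in these permutation tests. Missing the threshold does not show that a ratio was equal between groups. Between mice the log2 Hadha to Hadhb ratio had an SD of 0.19 in chow and in WTD mice, as had that of Acadvl to Acadm.

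The other 4 ratios differed between WTD and chow. The ratio of Cpt1a to Cpt2, the outer and inner carnitine steps, read 1.41, 1.78 and 2.82 in chow mice and 2.77, 3.36 and 5.55 in WTD mice. All 16 WTD mice were above the chow median, and the log2 difference was 0.88 (SE 0.13, permutation p = 1e-05, the smallest that 100000 resamples can give, adjusted p = 3.5e-05). The ratio of Acsl1 to Cpt1a, which act in sequence, read 1.80, 2.94 and 4.14 in chow mice and 0.902, 1.37 and 1.79 in WTD mice. Here the groups did not overlap (log2 difference -1.19, SE 0.13, adjusted p = 3.5e-05 in the permutation test). The ratio of Hadhb to Acaa2, the thiolase of shorter chains, rose by 0.60 on the log2 scale (SE 0.095, adjusted p = 3.5e-05, permutation test). That of Etfdh to Acadm rose by 0.31 (SE 0.063, adjusted p = 0.00068, permutation test). With TMM scaling Hadhb (-0.25) and Etfdh (-0.29) were themselves lower on WTD, but less so than Acaa2 (-0.85) and Acadm (-0.62).

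Between atorvastatin and WTD alone, 0 of 7 ratios passed at adjusted p under 0.05 and 2 had an unadjusted permutation p under 0.05. Closest were Acsl1 to Cpt1a (log2 difference 0.27, SE 0.11, adjusted p = 0.0502 in the permutation test) and Hadhb to Acaa2 (-0.20, SE 0.085, adjusted p = 0.061 in the permutation test). With 5 in place of 0.5 added to each count, 1 of these ratios passed. Against chow the same 4 ratios passed in mice given atorvastatin, with log2 differences of 0.81 for Cpt1a to Cpt2, -0.92 for Acsl1 to Cpt1a, 0.41 for Hadhb to Acaa2 and 0.43 for Etfdh to Acadm.

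**Figure D3:**
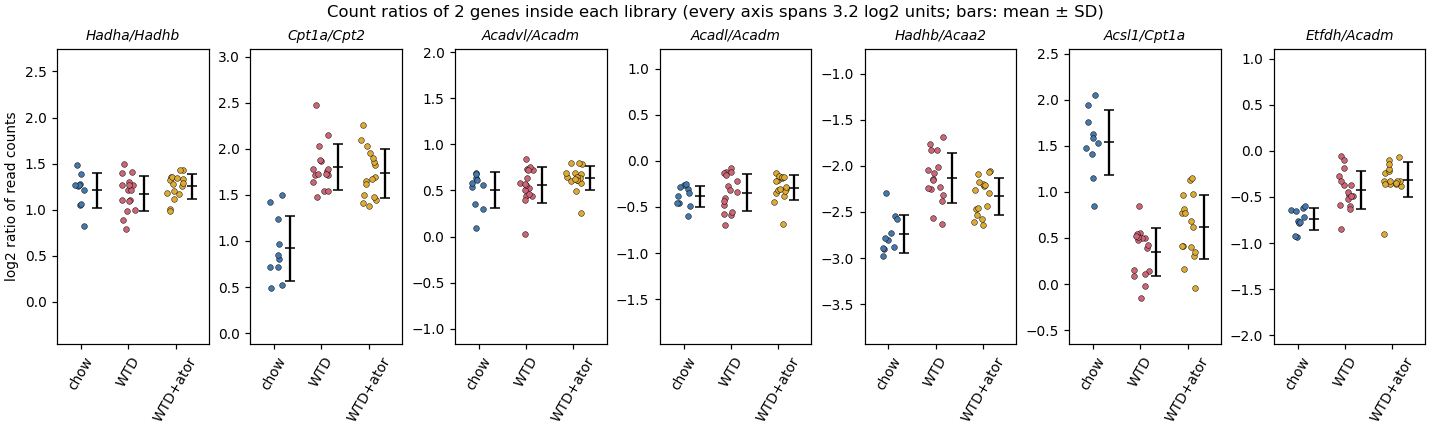
Log2 ratio of the read counts of 2 enzymes in each mouse (y axis) by group (WTD+ator, WTD with atorvastatin), with every axis spanning the same number of log2 units and bars for mean ± SD. Cpt1a/Cpt2, Acsl1/Cpt1a, Hadhb/Acaa2 and Etfdh/Acadm shift between chow and both WTD-fed groups, while Hadha/Hadhb ranges from 0.79 to 1.49 over all mice.

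Per kilobase of annotated exon, Acaa2 had the highest mean level in chow livers (786 ± 75.6 CPM per kb, SD, n = 10). Acadvl followed at 217 ± 16.6, Acadl at 158 ± 21.4 and Acadm at 106 ± 12.5 CPM per kb. The remaining genes were Acsl1 (79.0), Cpt2 (62.8), Hadha (47.4), Cpt1a (37.4), Etfdh (32.9) and Hadhb (27.2 CPM per kb). The length used was that of all annotated exons of a gene together (6.595 kb for Hadhb, 1.516 kb for Acaa2), which can exceed that of its RNA. The order below Acaa2 depends on this length. In CPM the lowest mean in chow livers was that of Cpt2 (150), with Hadhb at 179.

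Inside each group, mice with more of 1 enzyme RNA tended to have more of the others, apart from Cpt1a and Acadvl in chow mice. How many pairs passed depended on the scaling. Of 45 pairs, 18 in chow mice, 29 in WTD mice and 37 in mice given atorvastatin had a positive correlation of log2 CPM past the threshold (Pearson r, permutation p adjusted over 135 tests, threshold 0.05). None was negative past the threshold. The median r was 0.47, 0.64 and 0.72. On total counts without TMM factors 9, 9 and 8 pairs passed, with a median r of 0.57, 0.36 and 0.42, and by Spearman rho 7, 9 and 30 pairs passed. TMM factors ranged from 0.844 to 0.921 in chow, 0.915 to 1.22 in WTD and 0.890 to 1.11 in atorvastatin libraries, so they vary more in the WTD-fed groups. With 10 chow mice against 16 in each WTD-fed group, a chow pair needed a higher r to pass. Acadl with Hadha missed in chow mice at r 0.64 (permutation test, adjusted p = 0.076). In WTD mice Cpt1a with Acadvl passed at r 0.59 (permutation test, adjusted p = 0.030). Whether the groups differ in these correlations was not tested, and pairs of other genes were not examined for comparison.

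Past the threshold under TMM and total-count scaling, by Spearman rho and without the 9 libraries were 5 pairs in chow mice, 4 in WTD mice and 8 with atorvastatin. In chow mice these were Hadhb with Etfdh (r 0.90, rho 0.90), Acadm (0.88, rho 0.85) and Acadl (0.86, rho 0.83), Acadm with Acadl, and Cpt2 with Acsl1 (0.87, rho 0.82). In WTD mice they were Hadha with Acsl1 (0.88, rho 0.85) and Acadvl, and Cpt1a with Acsl1 (0.77, rho 0.77) and Cpt2. With atorvastatin the closest pair was Acadvl with Acaa2 (r 0.94, rho 0.95, and r 0.75 on total counts), followed by Acadl with Acadvl (0.92, rho 0.86). Hadha with Hadhb missed the threshold in chow mice (r 0.47, permutation test, adjusted p = 0.20) and in every group on total counts. Cpt1a in the 10 chow mice had no pair past the threshold among 9 (r from -0.50 to 0.21), whereas in the 16 WTD mice it had 6 of 9 (r from 0.41 to 0.77 over all 9). Acadvl likewise had 0 of 9 in chow mice (r from -0.31 to 0.28) and 7 of 9 in WTD mice (r from 0.26 to 0.82). Without the 2 mice farthest from the median of the first gene, all 18 chow pairs, 27 of the 29 WTD pairs and all 37 atorvastatin pairs were still positive, but the values were lower in the WTD-fed groups. The median r of these pairs went from 0.75 to 0.79 in chow mice, from 0.72 to 0.38 in WTD mice and from 0.75 to 0.66 with atorvastatin, and the lowest in WTD mice was -0.21, for Cpt2 with Etfdh.

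**Figure D4:**
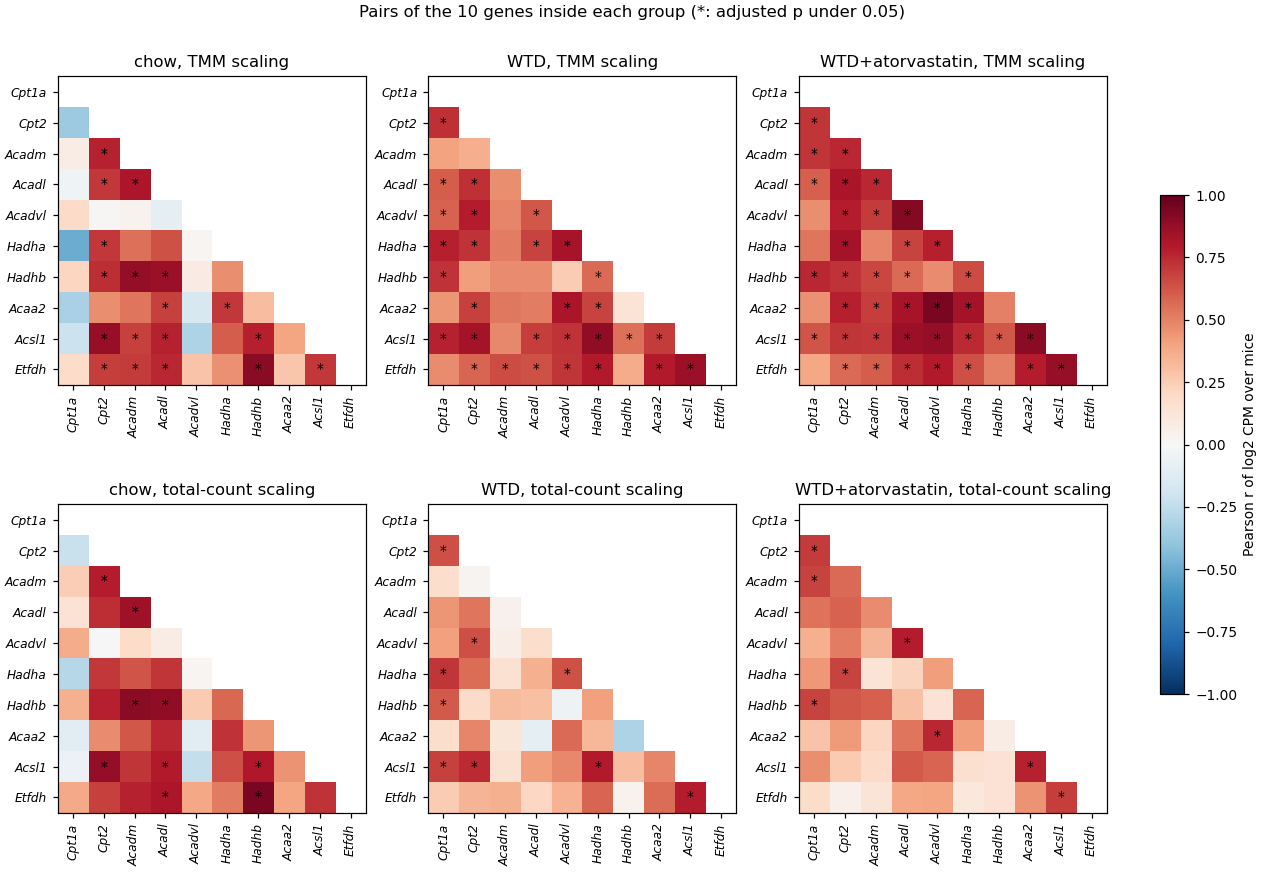
Pearson r of log2 CPM over the mice of a group (color scale from -1 to 1) for each pair of the 10 genes, in chow, WTD and WTD with atorvastatin mice, with TMM scaling above and total-count scaling below; asterisks mark an adjusted p under 0.05. With TMM scaling 18, 29 and 37 of 45 pairs are marked in 10, 16 and 16 mice, and with total-count scaling 9, 9 and 8.

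Among the genes outside the list whose levels followed the 10 enzymes most closely, over all 42 mice after subtracting each group's mean, were Dpys (r 0.89), Pctp (0.88), Acad11 (0.88), Slc25a13 (0.87), Slc27a2 (0.86), Decr2 (0.86), Bdh1 (0.86) and Cyp4a10 (0.86), as r with the mean standardized level of the enzymes. These mice share library scaling, so the values describe likeness only. Slc27a2 activates very long-chain fatty acids, and Decr2 works in peroxisomal oxidation. On WTD the log2 fold changes of these genes lay between -1.72 for Cyp4a10 and -0.19 for Bdh1. Among the enzymes themselves Acsl1 was closest to the mean (r 0.92) and Cpt1a farthest (r 0.69). That mean includes each enzyme itself, so these 2 values cannot be compared with those of the genes outside the list.

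A further list held 27 other tested genes of mitochondrial acyl-CoA oxidation, among them genes of amino acid breakdown such as Gcdh and Ivd. Of these 27, 19 fell and 1 rose on WTD (median log2 fold change -0.44), and on total-count scaling 11 fell and 3 rose (median -0.12). Of all 15574 tested genes, 2495 (16.0%) were called lower and 2729 higher on WTD. On total-count scaling 1101 of them were called lower and 5148 higher. Gcdh, the glutaryl-CoA dehydrogenase, fell from 795 ± 37.7 to 357 ± 78.1 CPM (log2 fold change -1.15, adjusted p = 3.08e-14), Ivd, the isovaleryl-CoA dehydrogenase, by 1.06 (adjusted p = 2.87e-12) and Eci1, an enoyl-CoA isomerase, by 0.75 (adjusted p = 2.27e-10). With atorvastatin 4 of the 27 rose, against 4.84% of all tested genes. Among the 4 were Ivd at 0.51 (adjusted p = 0.00013), Gcdh at 0.44 (adjusted p = 0.00034) and Pcca, a propionyl-CoA carboxylase subunit, at 0.34 (adjusted p = 0.0035). On total-count scaling 2 of the 27 rose and 1 fell, against 330 and 1022 of all 15574 genes, and the median turned from 0.15 to -0.016. Cpt1b, the muscle form of carnitine palmitoyltransferase, had a count of 0 in every mouse, and its span overlaps that of Gm44502 on the same strand, so the 0 gives no level.

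Among other acyl-CoA synthetases and fatty acid transport proteins, 5 of 11 tested genes fell on WTD and 1 rose (median -0.51, and -0.21 with 4 lower on total-count scaling), led by Acsm1 (-1.29, adjusted p = 1.07e-17) and Acsf2 (-0.84, adjusted p = 1.31e-10), which activate medium chains, and by Slc27a2 (-0.88, adjusted p = 1.56e-07). With atorvastatin 5 of 11 rose (median 0.30), among them Acsl5 (0.57, adjusted p = 0.00013), Acsm1 (0.47, adjusted p = 4.97e-05) and Acsf2 (0.39, adjusted p = 0.00095), and 3 of 11 rose on total-count scaling. Of all 15574 tested genes 16.0% were called lower on WTD and 4.84% higher with atorvastatin (330 genes on total-count scaling). 

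Peroxisomal oxidation genes fell in 9 of 15 cases on WTD and rose in 1 (median -0.51), and on total-count scaling 6 fell and 2 rose (median -0.20). Of all 15574 tested genes 16.0% were called lower, and on total-count scaling 1101 were lower and 5148 higher. The smallest p values were those of Pecr, a trans-2-enoyl-CoA reductase, at -1.21 (adjusted p = 2.78e-11), Amacr, a racemase of branched chains, at -0.68 (adjusted p = 1.46e-09) and Crot, the carnitine octanoyltransferase, at -0.62 (adjusted p = 7.95e-08). With atorvastatin 4 of 15 rose, namely Pecr (0.52, adjusted p = 0.0010), the fatty acyl-CoA transporters Abcd2 (0.52, adjusted p = 0.0020) and Abcd3 (0.40, adjusted p = 0.0010), and Amacr (0.27, adjusted p = 0.0090), while 1 of 15 rose on total-count scaling. Over all tested genes 4.84% were called higher in this comparison, and 330 of 15574 on total-count scaling.

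Of 13 regulators of the pathway 4 fell on WTD (median -0.21), against 16.0% of all tested genes, and on total-count scaling 2 fell and 1 rose (median 0.099). The 4 included Sirt3, the mitochondrial deacetylase (-0.93, adjusted p = 5.27e-11), Mlycd, which removes malonyl-CoA (-0.68, adjusted p = 4.31e-07), and Rxra, the partner of nuclear receptors such as Ppara (-0.36, adjusted p = 0.00052). The fourth was Ppara, the nuclear receptor that drives many oxidation genes, which fell from 155 ± 23.6 to 100 ± 28.4 CPM (-0.62, adjusted p = 0.0027). With atorvastatin 4 of 13 rose, against 4.84% of all tested genes. They were led by Acacb, which makes the malonyl-CoA that restrains Cpt1a (136 ± 56.2 to 290 ± 133 CPM, log2 fold change 1.08, adjusted p = 0.00069), Lpin1, a phosphatidate phosphatase and coactivator (0.70, adjusted p = 0.0013), and Sirt3 (0.40, adjusted p = 0.0015). Ppara stood at 0.29 (adjusted p = 0.24). 

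Of 12 fasting-responsive genes 8 fell on WTD (median -0.79), against 16.0% of all tested genes. Another 3 had a log2 fold change above 0, up to 1.19, of which 0 were called by edgeR and 2 by DESeq2. On total-count scaling 5 fell and 2 rose (median -0.49). Those with the smallest p were the fatty acid omega-hydroxylases Cyp4a14 at -1.88 (adjusted p = 6.12e-08) and Cyp4a10 at -1.72 (adjusted p = 7.40e-08), and Creb3l3, a fasting-induced transcription factor, at -0.75 (adjusted p = 1.18e-07). With atorvastatin 0 of 12 were called by edgeR or DESeq2 and 1 was lower on total-count scaling, and 2 had an unadjusted p under 0.05 in edgeR. Of all tested genes 7.1% were called in this comparison in either direction. The median was 0.0094, and -0.031 by DESeq2. Closest were Pck1, of gluconeogenesis (0.40, adjusted p = 0.094), Plin5, of lipid droplets (-0.31, adjusted p = 0.11), and Txnip (-0.17, adjusted p = 0.22).

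**Figure D5:**
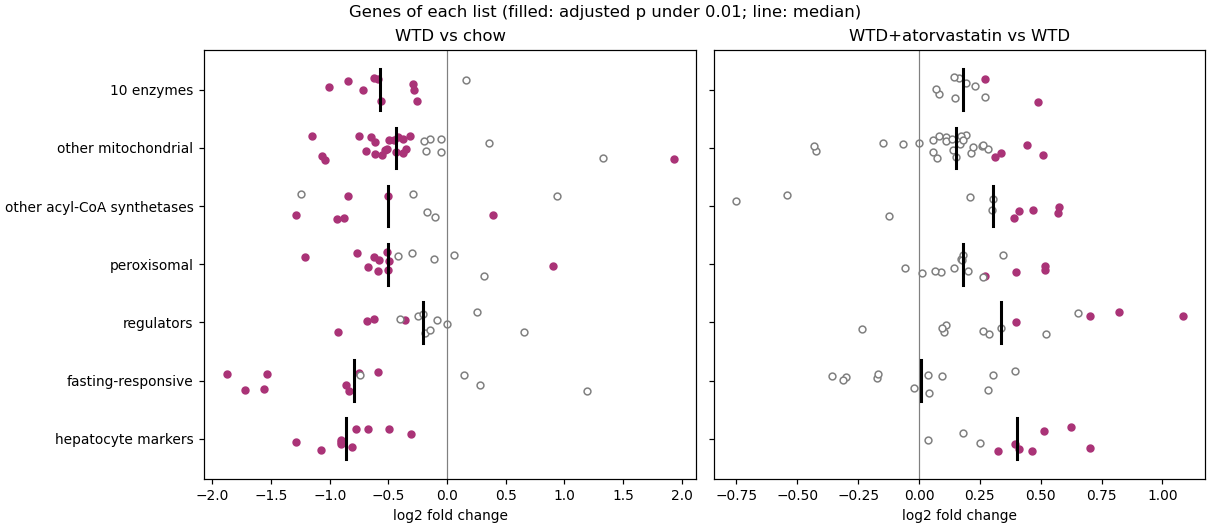
Log2 fold change (x axis) of each tested gene in the 10 enzymes, 5 related gene lists and the hepatocyte markers, in WTD compared with chow and in WTD with atorvastatin compared with WTD, with filled points where the adjusted p was under 0.01 and a black line at the list median. The list medians in WTD compared with chow lie between -0.21 for the regulators and -0.86 for the hepatocyte markers.

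Markers of liver cell types moved with both comparisons. Of all 15574 tested genes, 2729 were called higher and 2495 lower on WTD, and 754 higher and 352 lower with atorvastatin. All 10 hepatocyte markers fell on WTD (7 of 10 on total-count scaling), with Ttr at -1.29, Apoh at -1.08 and Ahsg at -0.90, and 7 rose with atorvastatin, with Cps1 at 0.70, Alb at 0.63 and Serpinc1 at 0.41. Of 10 macrophage markers 8 rose on WTD (median log2 fold change 2.46), led by Cd5l, Lyz2 and Csf1r, and with atorvastatin 5 fell, led by Lyz2, Trem2 and Cd68, and 1 rose. Of 10 stellate cell and fibroblast markers 6 rose on WTD (1.43), led by Col1a2, Dcn and Col3a1, and 4 fell with atorvastatin while Reln rose. All 6 cholangiocyte markers rose on WTD (1.99), and Spp1 fell with atorvastatin. The summed level of the macrophage markers was 413 to 640 CPM in chow mice, 2424 to 4433 CPM in WTD mice and 1746 to 3105 CPM with atorvastatin.

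Sinusoidal endothelial markers moved both ways on WTD, as Clec4g and Kdr fell and Lyve1 rose among 7 (4 higher and 1 lower on total-count scaling), and Clec4g and Kdr rose with atorvastatin. On WTD 3 of 3 tested neutrophil markers rose. Of 5 adipocyte markers only Cidea was tested, and it rose. These 5 together summed to a median of 0.26 CPM and at most 0.94 CPM in WTD mice, so Cidea stayed near the floor. Of the B cell and skeletal muscle markers, which chow mouse AZ#1 carried, 1 of 5 and 2 of 2 tested were called lower by edgeR and 0 of either by DESeq2. By edgeR 0 of 6 T cell and 0 of 5 cell cycle markers were called on WTD, with 1 and 2 at an unadjusted p under 0.05. The part of cell composition in the levels of the 10 enzymes was not tested.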

How the data were processed

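Liver RNA was sequenced in 42 mice. Per the labels and methods, the authors prepared poly(A)-selected, strand-specific libraries, trimmed reads with Trimmomatic, aligned them to GRCm38 with STAR and counted them with HTSeq 0.6.1p1. The deposited counts are raw whole numbers per gene, without normalization. The 42 single tables were identical to the merged table, and no 2 libraries were duplicates. Summary lines of HTSeq (2.00% to 2.78% without a gene, 5.43% to 6.57% ambiguous) were left out. Symbols and exon lengths came from GENCODE vM21 (GRCm38), which held 54409 of 54446 gene identifiers.

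Counts were filtered (filterByExpr, minimum count 10, minimum total 15), scaled by TMM and compared by the robust quasi-likelihood method of edgeR 4.0.16 in R 4.3.3, in 1 fit of 3 groups over 42 mice. It had no covariates because the sources name no batch. Benjamini-Hochberg adjustment covered all tested genes and genes were called under 0.01. CPM use TMM-scaled library sizes. Ratios used counts plus 0.5, and log2 CPM for likeness a prior count of 2. Ratios and correlations were tested by permutation. Scripts were tested on simulated data.

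Depth was 15661381 to 36224054 counts per library. The 10 members, the gene lists and the tests were chosen with earlier results of these data known. The named genes are all 10 members, per list the 3 with the smallest p in WTD compared with chow and in atorvastatin compared with WTD, and those among the 10 most alike genes, except some that are not reported here. Ppara and Cpt1b were named after their values were seen. In the lists, 2 other mitochondrial and 3 synthetase genes were not tested. Single libraries are single mice, whose cages or litters are not given.

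Alternatives were DESeq2 1.42.0, limma-voom (limma 3.58.1) weighting samples by quality, factors by RLE or upper quartile, skipping the filter, requiring 10 counts per mouse, estimation that was not robust, only the 2 groups compared, a threshold of 0.05, leaving out 9 libraries with many missing weak genes, leaving out the 20 most abundant genes and leaving out each mouse. Total-count scaling of the test was added after seeing the data.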

Additional observations from a re-analysis of the deposited data

How the results depend on the processing

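In WTD compared with chow, 9 enzymes were called lower, 7 to 9 in the other settings except total counts, where 6 were lower and Cpt1a was higher, and 7 to 9 when single mice were left out. In atorvastatin compared with chow 6 were lower, and 5 or 6 in the other settings, with Cpt1a called higher in 3 of them and at a threshold of 0.05. Leaving out single mice gave 5 to 7 calls there, Cpt1a included. In atorvastatin compared with WTD, 2 were called, but 0 with DESeq2, RLE, upper-quartile, total-count scaling or only the 2 groups compared, 1 without a filter or when 10 counts per mouse were required, 3 without the 9 libraries, and 8 with limma-voom. Leaving out single mice gave 0 to 4, with 4 without Gen#20. The share of higher genes among all calls of that comparison was 68.2% (754 of 1106), but 50.9% with DESeq2, 54.9% with RLE, 55.6% when 10 counts per mouse were required, 52.8% with only the 2 groups compared and 24.4% on total counts. On total counts it was 82.4% in WTD compared with chow, against 52.2%. Total-count scaling moved the median gene by 0.34 in WTD compared with chow, by -0.16 in atorvastatin compared with WTD and by 0.20 in atorvastatin compared with chow.

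Signs turned on total counts for Hadha (0.027), Hadhb (0.057) and Etfdh (0.011) in WTD compared with chow, for Acadm (-0.079), Acadl (-0.021), Acadvl (-0.0011), Hadha (-0.017) and Hadhb (-0.094) in atorvastatin compared with WTD, and for Hadha (0.0094) and Etfdh (0.043) in atorvastatin compared with chow. Without the 9 libraries, Cpt1a turned to -0.0060 in WTD compared with chow (adjusted p = 0.98, and 0.0015 to 0.98 over the alternatives), the Hadha/Hadhb difference to 0.045, and the Cpt1a/Cpt2 difference to 0.045 in atorvastatin compared with WTD. The cause was not tested. With 5 added to counts, 1 ratio passed in atorvastatin compared with WTD in place of 0. Correlated pairs in chow, 18, became 7 by Spearman rho, 9 on total counts and 6 without the 9 libraries. In WTD mice 29 became 9, 9 and 10, and with atorvastatin 37 became 8 on total counts. Depth did not limit the members, whose lowest count in a library was 1307.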
